A study of Mus musculus with 20 samples.

Results

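The lysosome and phospholipidosis genes described here are 41 genes chosen by symbol for what their products do: lysosomal proteases, enzymes of lipid and glycan breakdown, membrane proteins, proton pump subunits and the regulator Tfeb. Of these, 40 had a probe set among the 16464 named genes of the table, and Cd63 was not analysed here. The rule takes them by role and uses no measured value, although results of these data were known when it was written, and it sets chlorpromazine, a cationic amphiphilic drug, against ethinylestradiol. RNA of whole liver tissue was measured on 20 Affymetrix arrays, 5 in each of 4 groups, and all mice were C57BL/6 males of 10 weeks with a body weight of 21 to 27 g. The CPZ group received chlorpromazine at 10 mg/kg in PBS, and the PBS group received PBS alone. The EE2 group received ethinylestradiol at 3.7 mg/kg in sunflower oil, and the oil group received the oil alone. All 4 groups were dosed by oral gavage for 25 days, and the left lateral lobe was sampled in its central part. The drugs thus differ in structure, dose and vehicle, and each was set against its own vehicle.

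Lysosomes are acidic compartments in which hydrolases break down lipids, proteins and glycans, and a proton pump in their membrane keeps them acidic. Chlorpromazine belongs to the cationic amphiphilic drugs, bases that become trapped in acidic lysosomes and are known to hinder lysosomal phospholipases, so that phospholipid can build up there (phospholipidosis). The transcription factor TFEB is known to move into the nucleus when lysosomes are stressed and to raise many lysosomal genes through a short promoter motif, the CLEAR element. In liver, hepatocytes and resident macrophages (Kupffer cells) both carry many lysosomes. In whole tissue, more cells of a type and more RNA per cell cannot be told apart, and this holds for every change below.

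Values are log2 levels from the arrays as deposited, and 1 unit is a doubling. Arrays are listed in the order of the sample numbers in the labels: 1, 3, 4, 11 and 12 for CPZ, 7, 10, 14, 19 and 20 for PBS, 9, 13, 15, 17 and 18 for EE2, and 2, 5, 6, 8 and 16 for oil. A change is the difference of 2 group means with its standard error (SE) from limma, a linear model fitted to all genes. A gene was called where its limma p stayed under 0.05 after Benjamini-Hochberg adjustment across the 16464 genes. The labels do not say that each sample came from a separate mouse, so p-values reflect only how far these samples spread, which may be technical, and 5 arrays a group limit the precision. Within a group, the correlation across genes between any 2 arrays was 0.994 to 0.997. Array medians averaged 4.60 in EE2 and 4.45 over the other 3 groups. The hepatocyte markers averaged 12.95 in CPZ, 12.98 in PBS, 12.90 in EE2 and 12.97 in oil, high on these arrays. Cyp2b10, a drug-induced P450 gene, averaged 8.55 ± 0.40 in CPZ and 4.49 ± 0.45 in PBS, and 7.56 ± 0.60 in EE2 and 3.20 ± 0.28 in oil (SD, n = 5 each). CPZ array 11 was the highest of its group in macrophage markers, which averaged 8.37 on it, against 7.48 to 7.80 on the other CPZ arrays. The search for outlying arrays given near the end did not flag this value. No filter on low levels was used, and 38 of the 40 members lay above the median level of all genes, with none under the lower quartile.

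The promoters are shown first because the TFEB motif is the sequence that links many of these genes in the literature on lysosomes. RefSeq promoters on GRCm38.p6, covering 250 bases before to 50 bases after the gene start, were at hand for 35 of the 40 members. The motifs searched were the palindrome TCACGTGA, its inner 6 bases CACGTG, and a 10-base form in which TCACGTGA has G before it and C after it. Each reads the same on both strands, and a longer match contains the shorter ones. The 10-base form is the known consensus of the CLEAR element of TFEB, and the shorter motifs are parts of it. Only exact matches were counted, so a promoter without the 10-base form may still hold a variant of the element. TCACGTGA occurred in 6 of the 35 members (17.1%) and in 1.69% of the 13162 tested genes with a promoter. CACGTG occurred in 14 members (40.0%) and in 10.5% of tested genes, while the 10-base form occurred in 0 members and in 0.562% of tested genes. The 6 promoters with TCACGTGA follow, with those letters in capitals. Ctsd lies on the minus strand at chr7:142387778-142388077 and Atp6v0d1 on the minus strand at chr8:105566015-105566314. Mcoln1 lies on the plus strand at chr8:3500269-3500568 and Ctsa on the plus strand at chr2:164833523-164833822. Gla lies on the minus strand at chrX:134600956-134601255 and Atp6v1a on the minus strand at chr16:44139210-44139509.
Ctsd: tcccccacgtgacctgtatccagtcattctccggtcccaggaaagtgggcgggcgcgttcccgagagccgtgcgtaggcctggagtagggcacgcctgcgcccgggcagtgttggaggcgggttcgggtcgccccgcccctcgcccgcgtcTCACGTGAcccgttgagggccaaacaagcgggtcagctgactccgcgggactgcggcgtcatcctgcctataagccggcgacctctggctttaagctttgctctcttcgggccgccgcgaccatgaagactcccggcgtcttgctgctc
Atp6v0d1: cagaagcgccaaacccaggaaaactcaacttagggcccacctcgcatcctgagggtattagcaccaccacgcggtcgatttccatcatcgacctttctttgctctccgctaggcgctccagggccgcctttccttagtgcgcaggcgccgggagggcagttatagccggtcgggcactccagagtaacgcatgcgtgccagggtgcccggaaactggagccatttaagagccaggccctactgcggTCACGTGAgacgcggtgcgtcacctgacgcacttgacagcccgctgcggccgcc
Mcoln1: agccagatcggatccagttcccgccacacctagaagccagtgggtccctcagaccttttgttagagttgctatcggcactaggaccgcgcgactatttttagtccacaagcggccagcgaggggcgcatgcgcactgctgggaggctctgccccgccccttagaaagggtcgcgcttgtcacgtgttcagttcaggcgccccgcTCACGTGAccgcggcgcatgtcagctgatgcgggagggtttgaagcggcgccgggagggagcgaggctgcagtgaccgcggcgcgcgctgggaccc
Ctsa: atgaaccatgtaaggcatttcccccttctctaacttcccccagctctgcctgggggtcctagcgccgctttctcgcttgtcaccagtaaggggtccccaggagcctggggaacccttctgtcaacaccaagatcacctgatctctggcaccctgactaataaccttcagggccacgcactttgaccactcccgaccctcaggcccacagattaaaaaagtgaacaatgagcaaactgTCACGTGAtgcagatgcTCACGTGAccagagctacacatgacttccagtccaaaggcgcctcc
Gla: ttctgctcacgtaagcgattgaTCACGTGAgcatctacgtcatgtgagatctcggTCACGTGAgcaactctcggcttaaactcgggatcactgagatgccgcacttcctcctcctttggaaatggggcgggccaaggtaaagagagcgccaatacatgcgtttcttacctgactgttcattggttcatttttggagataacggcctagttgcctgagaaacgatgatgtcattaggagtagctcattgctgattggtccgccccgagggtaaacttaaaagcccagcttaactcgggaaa
Atp6v1a: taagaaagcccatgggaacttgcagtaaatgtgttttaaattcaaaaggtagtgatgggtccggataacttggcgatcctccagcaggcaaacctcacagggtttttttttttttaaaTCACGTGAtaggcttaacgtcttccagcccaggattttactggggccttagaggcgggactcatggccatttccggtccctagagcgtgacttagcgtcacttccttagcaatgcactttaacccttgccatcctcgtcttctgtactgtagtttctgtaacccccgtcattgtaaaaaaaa

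The match began 99 bases before the gene start in Ctsd, 4 before it in Atp6v0d1, 46 before it in Mcoln1 and 132 before it in Atp6v1a. Ctsa carried 2 matches, 13 bases before and 4 after the start of one of its promoters, and Gla carried 2 matches, 228 and 195 bases before its start. Lamp1 held 4 matches to the 6-base CACGTG within 61 bases of its start, and none to the longer motifs. Of the 26 members with a promoter that rose with EE2, 4 held TCACGTGA and 10 held CACGTG. Of the 7 with a promoter that were not called with EE2, 2 held TCACGTGA and 3 held CACGTG, and of the 2 that fell, 0 and 1 did. A motif match is a description of the letters and not evidence of binding.

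The first comparison set CPZ against PBS. Of the 40 lysosome genes, 0 were called higher and 1 fell, Arsa, which encodes the arylsulfatase that removes sulfate from the lipid sulfatide. That is 2.5% of the members, and over all genes 0.796% were called, 0.443% higher and 0.352% lower, so few genes of any kind were called in this comparison. The members' changes lay between -0.37 and 0.46 with a median of 0.0024, against a median of 0.007 over all genes, and 21 were above and 19 below 0. With each array centred on its median, the members' median was -0.017, and the counts were again 0 and 1. An unadjusted limma p under 0.05 was found for 6 of the 40 members and for 12.2% of all genes. The limma 95% interval of the change lay within 0.25 of 0 for 28 members, within 0.5 for 36 and within 1 for all 40.

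Arsa stood at 8.66, 9.02, 8.84, 8.96 and 9.09 on the CPZ arrays, against 9.27, 9.29, 9.39, 9.31 and 9.17 on the PBS arrays. Every CPZ array lay below every PBS array, and the change was -0.37 (SE 0.084), with a limma adjusted p of 0.0413. This call was close to the threshold. It was lost without any 1 of CPZ arrays 1, 3, 4 and 11 or PBS arrays 7, 10, 14 and 19, with limma adjusted p between 0.0527 and 0.115. It was also lost in a model of the 10 CPZ and PBS arrays alone, at a limma adjusted p of 0.0881, and with the sample number as a covariate, at 0.274 and a change of -0.28. Sample numbers were mostly lower in CPZ than in PBS, so that covariate overlaps with the comparison itself. Npc1, which exports cholesterol from the lysosome and is known to be blocked by cationic amphiphilic drugs, stood at 9.00, 9.09, 9.11, 9.00 and 9.07 in CPZ and 9.11, 9.29, 9.23, 9.27 and 9.16 in PBS. The highest CPZ array lay just under the lowest PBS array, and the change of -0.16 (SE 0.052) was not called (limma adjusted p = 0.177). Arsa and Npc1 were the 2 members whose CPZ and PBS arrays did not overlap, where 2.98% of all genes had no overlap. Between oil and PBS, without a drug, 3 members had no overlap, Npc1 among them, where 1.69% of all genes had none.

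Enzymes that handle the lipids stored in phospholipidosis were not called with CPZ. Pla2g15, the lysosomal phospholipase A2 that cationic amphiphilic drugs are known to inhibit, stood at 4.81, 4.69, 4.73, 4.80 and 4.92 in CPZ and 4.78, 4.51, 4.71, 4.43 and 4.83 in PBS. The arrays overlapped, and the change was 0.14 with a limma 95% interval of -0.052 to 0.33. Smpd1, the acid sphingomyelinase that such drugs are known to displace from lysosomal membranes, stood at 8.72, 8.57, 8.62, 8.64 and 8.60 in CPZ and 8.60, 8.44, 8.38, 8.67 and 8.61 in PBS. Its change of 0.091 had an interval of -0.05 to 0.23. Lipa, the acid lipase that splits cholesteryl esters, stood at 9.69, 10.07, 9.98, 10.18 and 9.99 in CPZ and 10.11, 9.93, 10.05, 9.91 and 9.89 in PBS, a change of 0.0041 (interval -0.19 to 0.20). CPZ array 1 was the lowest of these 10 arrays and CPZ array 11 the highest. Npc2, the soluble partner of NPC1 in cholesterol export, stood at 9.53, 9.37, 9.55, 9.71 and 9.38 in CPZ and 9.37, 9.40, 9.44, 9.52 and 9.39 in PBS, a change of 0.082 (interval -0.053 to 0.22).

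Membrane, pump and regulator genes were not called with CPZ either. Lamp1, a main glycoprotein of the lysosomal membrane, stood at 11.97, 11.98, 11.96, 11.93 and 11.93 in CPZ and 12.08, 11.95, 11.94, 12.07 and 12.04 in PBS, a change of -0.06 (SE 0.043). Lamp2, its relative that also serves chaperone-mediated autophagy, stood at 12.01, 11.95, 11.93, 11.86 and 11.93 in CPZ and 11.96, 11.95, 11.94, 11.94 and 11.93 in PBS, a change of -0.0061 (SE 0.038). Both genes varied little among the arrays of a group. Mcoln1, a cation channel that releases lysosomal calcium, stood at 7.42, 7.31, 7.46, 7.47 and 7.25 in CPZ and 7.33, 7.44, 7.36, 7.46 and 7.31 in PBS, a change of 0.0007 (SE 0.066). Atp6v1a, the catalytic subunit of the proton pump, stood at 8.83, 8.50, 8.63, 8.67 and 8.67 in CPZ and 8.61, 8.58, 8.63, 8.55 and 8.48 in PBS, a change of 0.089 (SE 0.065). Tfeb mRNA stood at 4.53, 4.91, 5.16, 4.90 and 4.73 in CPZ and 4.75, 5.04, 5.06, 4.99 and 4.87 in PBS, a change of -0.10 (SE 0.10). All 3 pairs of groups overlapped, and the place of the TFEB protein in the cell was not measured.

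The largest positive CPZ changes were those of proteases, and these did not pass the test. Ctss, the cathepsin known for antigen presentation in macrophages and dendritic cells, stood at 10.51, 10.23, 10.39, 11.23 and 10.19 in CPZ and 9.87, 10.02, 9.96, 10.07 and 10.32 in PBS. The groups overlapped, CPZ array 11 lay well above the rest, and the change of 0.46 (SE 0.16) had a limma adjusted p of 0.188. Lgmn, the asparagine-specific protease legumain, stood at 8.50, 8.07, 7.96, 8.64 and 8.16 in CPZ and 7.57, 7.91, 7.70, 7.84 and 8.10 in PBS, a change of 0.44 (SE 0.14). Ctsc, a dipeptidyl peptidase that activates serine proteases of immune cells, stood at 11.00, 10.54, 10.80, 11.25 and 10.65 in CPZ and 10.36, 10.57, 10.48, 10.53 and 10.58 in PBS, a change of 0.35 (SE 0.11). CPZ arrays 1 and 11 were the highest for both genes, and neither was called (limma adjusted p = 0.142 for Lgmn and 0.149 for Ctsc). Without CPZ array 11 the changes were 0.28 (SE 0.12) for Ctss, 0.35 (SE 0.13) for Lgmn and 0.25 (SE 0.097) for Ctsc. Ctsh, a cathepsin with aminopeptidase activity, stood at 10.82, 10.90, 10.83, 10.89 and 10.77 in CPZ and 10.75, 10.81, 10.70, 10.82 and 10.67 in PBS, a change of 0.091 (SE 0.043). Ctsd, the main aspartic protease of lysosomes, stood at 9.80, 9.73, 9.81, 9.91 and 9.71 in CPZ and 9.77, 9.73, 9.79, 9.85 and 9.84 in PBS, a change of -0.0032 (SE 0.05). The PBS arrays of Ctsd lay within its CPZ range, and the groups overlapped in part for Ctsh.

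Macrophage marker genes also lay higher on the CPZ arrays. Of 18 macrophage markers, 3 rose with CPZ, 0 fell, and all 18 changes were above 0, with a median of 0.59. The 3 were C1qa at 0.64 (SE 0.12), Cd68 at 0.79 (SE 0.16) and Adgre1 at 0.62 (SE 0.14), which encode a complement subunit, a macrophage lysosomal glycoprotein and the F4/80 antigen. The summed linear level of the 18 markers ran between 6340 and 11286 in CPZ and between 4633 and 6139 in PBS, with array 11 the highest. Without CPZ array 11, 2 of these markers were called, and the median change was 0.43. The count was 0 without PBS array 14, 1 without PBS array 7, 5 without PBS array 20 and 6 without CPZ array 12, and it was 0 with the 10 arrays alone or with the sample number as a covariate. In oil minus PBS, without a drug, 17 of these 18 markers were also above 0, with a median of 0.27 and 0 called. The PBS arrays are shared by both comparisons. No marker can be at 0 on this scale, and the part of macrophages in the protease values was not tested.

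**Figure D1:**
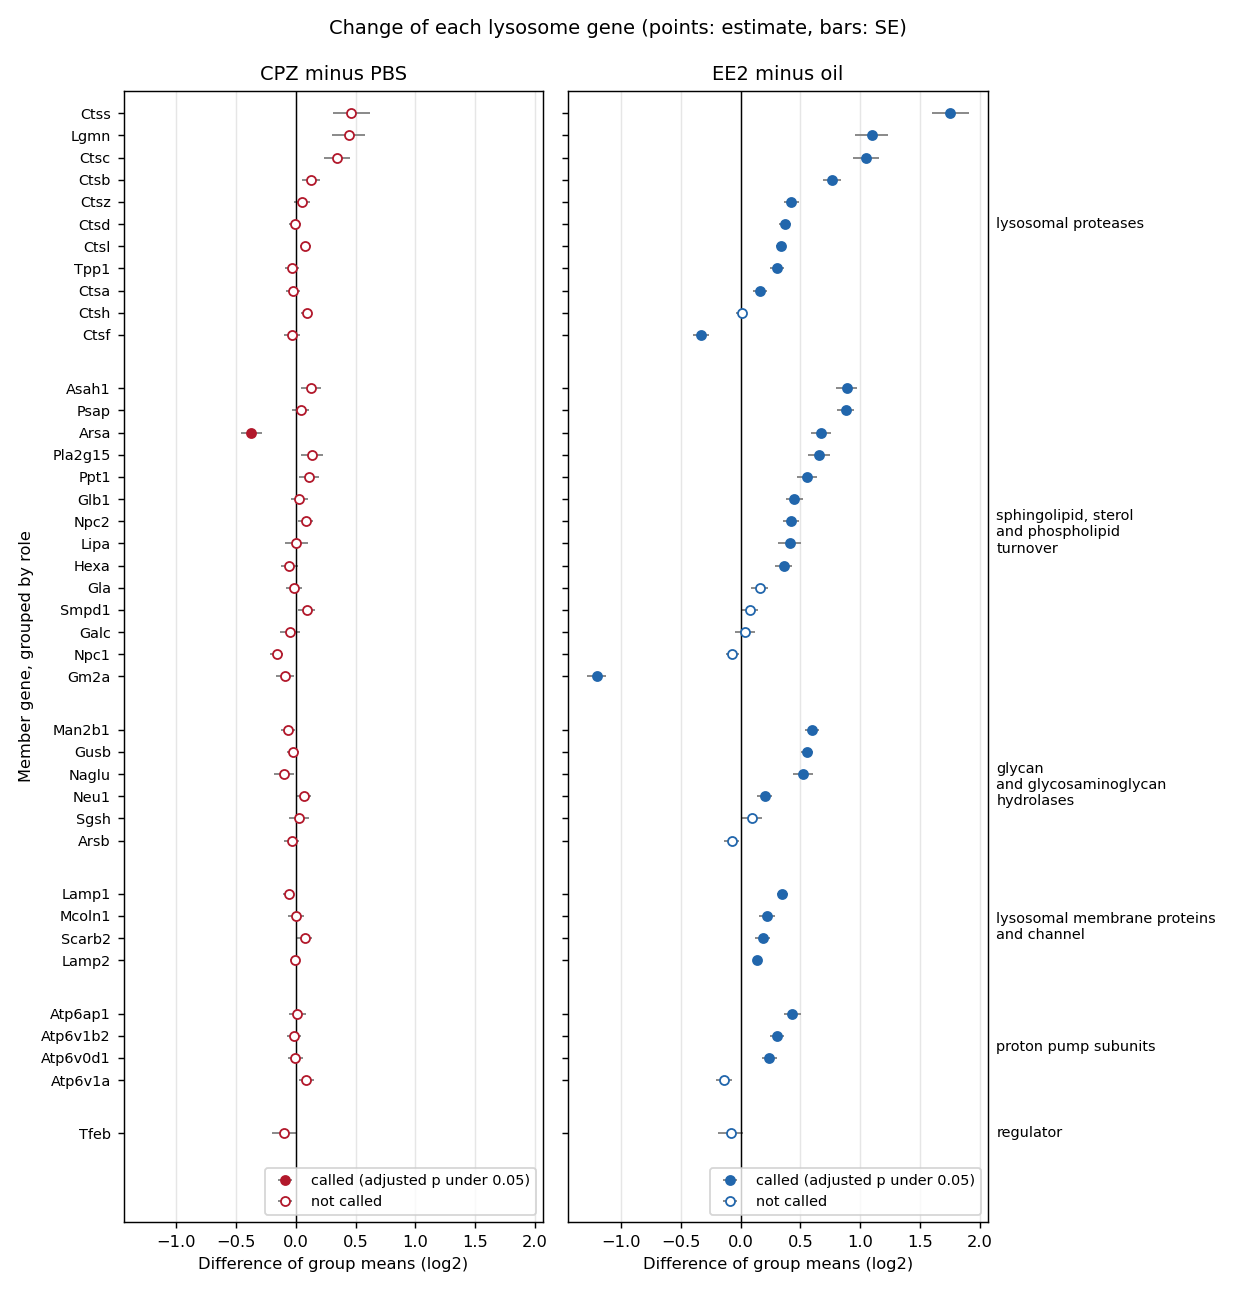
Change of each of the 40 lysosome genes, in log2 units with its SE, for CPZ minus PBS (left) and EE2 minus oil (right), grouped by role, with filled points for called genes. With CPZ 1 gene, Arsa, was called, and with EE2 29 were higher and 2 lower; with each array centred on its median the EE2 counts were 23 and 7, and Lamp2, Ctsh, Smpd1, Galc and Sgsh turned below 0.

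The second comparison set EE2 against oil. Lysosome genes mostly rose: 29 of 40 rose, 2 fell and 9 were not called, which is 77.5% of the members called and 72.5% higher. Over all genes 45.9% were called, 19.2% higher and 26.7% lower, so EE2 changed a large part of the liver's genes and falls were the more frequent direction. The members' median change was 0.34, against -0.069 over all genes. With each array centred on its median, the median of all genes was -0.22 and that of the members 0.19. Of the members, 23 were then called higher and 7 lower, and of all 16464 genes 2085 were higher and 9634 lower. Centring turned 5 members below 0: Lamp2, which had been called higher, and Ctsh, Smpd1, Galc and Sgsh, which had not been called. Relative to the median of all genes, the members' median stood 0.41 higher as deposited. Centring cannot change this distance, since it shifts all genes of an array by the same amount. The EE2 and oil arrays did not overlap for 26 members that were higher and 2 that were lower, against 31.8% of all genes without overlap and 14.6% without overlap and higher. Most rises were small: 20 of the 29 were under 1.5-fold, 12 members rose by over 0.5 and 3 by over 1.

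Among the 11 proteases, 9 rose and 1 fell with EE2, with a median change of 0.37, and after centring 8 were higher and 2 lower, Ctsf and Ctsh. Ctss stood at 11.93, 11.80, 12.26, 11.99 and 11.72 on the EE2 arrays, against 10.19, 10.12, 10.52, 10.14 and 9.97 on the oil arrays. Every EE2 array lay over a unit above every oil array, and the change was 1.75 (SE 0.16), a 3.37-fold rise with a limma adjusted p of 1e-08. Lgmn stood at 9.03, 9.16, 9.39, 8.86 and 8.94 in EE2 and 7.68, 8.12, 8.27, 8.01 and 7.82 in oil, without overlap, a rise of 1.10 (SE 0.14). Ctsc stood at 11.80, 11.59, 11.61, 11.45 and 11.76 in EE2 and 10.59, 10.70, 10.78, 10.54 and 10.34 in oil, without overlap, a rise of 1.05 (SE 0.11). These 3 had the largest changes of the 29 members that rose. Ctsb, an abundant cysteine cathepsin of hepatocytes and macrophages, stood at 9.58, 9.46, 9.59, 9.36 and 9.40 in EE2 and 8.73, 8.70, 8.79, 8.68 and 8.68 in oil, a rise of 0.77 (SE 0.076). Ctsd stood at 10.18, 10.26, 10.08, 10.26 and 10.14 in EE2 and 9.79, 9.86, 9.74, 9.85 and 9.83 in oil, a rise of 0.37 (SE 0.05), about 1.29-fold. In both genes the lowest EE2 array lay above the highest oil array. Smaller rises were 0.42 (SE 0.065) for Ctsz, a carboxypeptidase cathepsin, 0.34 (SE 0.045) for Ctsl, a cysteine endopeptidase, and 0.31 (SE 0.059) for Tpp1, a tripeptidyl peptidase. Ctsa, which protects beta-galactosidase and neuraminidase in a complex, rose by 0.16 (SE 0.056), a call lost without EE2 array 13 or 15 or oil array 2 or 6. The Ctsa call was also lost after quantile normalization, after centring, with the 10 EE2 and oil arrays alone and with the sample number as a covariate. Ctsf, a cysteine cathepsin, fell by 0.33 (SE 0.068). Ctsh was not called, at 10.88, 10.92, 10.83, 10.87 and 10.90 in EE2 and 10.91, 10.87, 10.87, 10.87 and 10.84 in oil, a change of 0.009 (SE 0.043), and it was called lower after centring at -0.15.

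**Figure D2:**
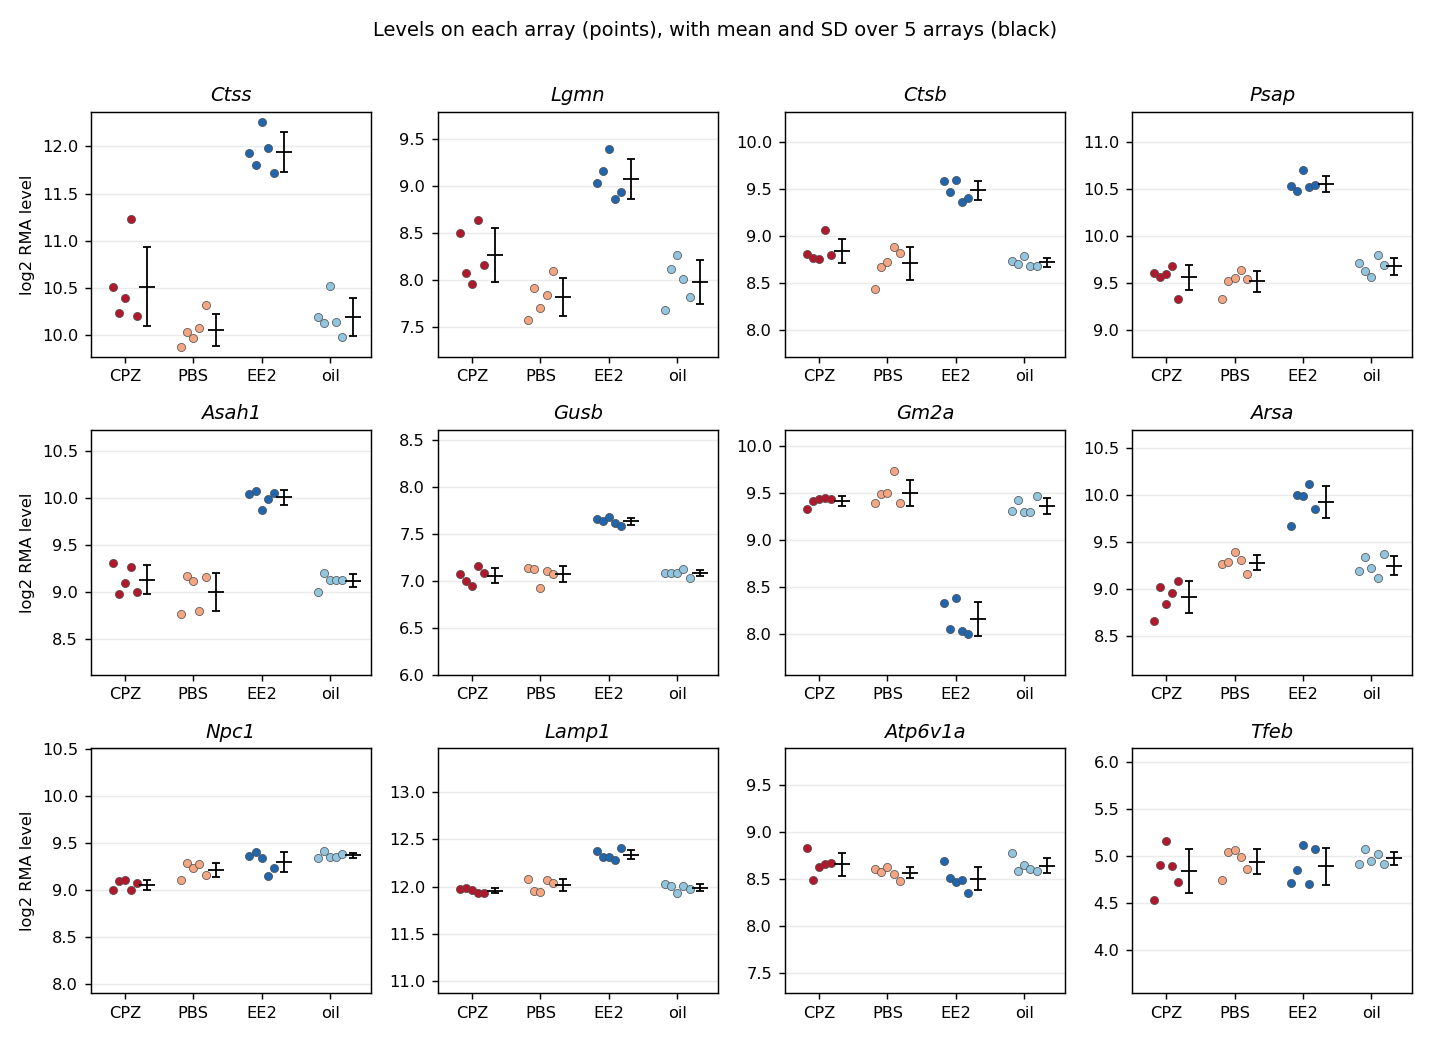
Log2 level of 12 lysosome genes on each array (points) in the order CPZ, PBS, EE2 and oil, with the mean and SD over 5 arrays in black, every panel spanning the same height. EE2 arrays lie above the oil arrays for Ctss, Lgmn, Ctsb, Psap, Asah1, Gusb, Arsa and Lamp1 and below them for Gm2a, while CPZ arrays lie wholly below PBS arrays for Arsa and Npc1 alone among these genes.

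Among the 14 genes of sphingolipid, sterol and phospholipid turnover, 9 rose and 1 fell with EE2, with a median change of 0.42, and after centring 9 were higher and 2 lower, Gm2a and Npc1. Gm2a, the activator protein that presents ganglioside GM2 to its hexosaminidase, moved against the rest. It stood at 8.33, 8.05, 8.38, 8.03 and 7.99 in EE2 and 9.31, 9.42, 9.30, 9.30 and 9.47 in oil, with every EE2 array under every oil array by more than the spread within either group. Gm2a fell by 1.20 (SE 0.078, limma adjusted p = 9.55e-11). Its partner Hexa, the alpha subunit of that hexosaminidase, rose by 0.36 (SE 0.072). Psap, the precursor of the saposins that activate other sphingolipid hydrolases, stood at 10.53, 10.48, 10.69, 10.51 and 10.54 in EE2 and 9.71, 9.62, 9.56, 9.79 and 9.68 in oil, a rise of 0.88 (SE 0.069). Asah1, the acid ceramidase, stood at 10.04, 10.07, 9.87, 9.99 and 10.05 in EE2 and 9.00, 9.20, 9.13, 9.13 and 9.13 in oil, a rise of 0.89 (SE 0.085). The rises were 1.84-fold for Psap and 1.85-fold for Asah1, without overlap of the groups. Arsa stood at 9.67, 10.00, 9.99, 10.12 and 9.86 in EE2 and 9.19, 9.34, 9.23, 9.12 and 9.38 in oil, a rise of 0.67 (SE 0.084), against its fall with CPZ.

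Pla2g15 stood at 5.32, 5.20, 5.43, 5.27 and 5.03 in EE2 and 4.35, 4.66, 4.45, 4.74 and 4.75 in oil, a rise of 0.66 (SE 0.092). Npc2 stood at 9.59, 9.84, 9.82, 9.85 and 9.89 in EE2 and 9.39, 9.42, 9.32, 9.37 and 9.38 in oil, a rise of 0.42 (SE 0.065), with EE2 array 9 the lowest of its group. Lipa stood at 10.12, 10.50, 10.20, 10.56 and 10.26 in EE2 and 10.10, 9.96, 9.89, 9.71 and 9.93 in oil, a rise of 0.41 (SE 0.10), with the lowest EE2 array just above the highest oil array. All 3 genes were higher on every EE2 array than on every oil array. Ppt1, which removes palmitate from proteins, rose by 0.56 (SE 0.084), and Glb1, the beta-galactosidase, rose by 0.45 (SE 0.072). The 4 members of the group that were not called were Npc1, Smpd1, Gla and Galc. Npc1 stood at 9.36, 9.41, 9.34, 9.15 and 9.24 in EE2 and 9.34, 9.42, 9.36, 9.35 and 9.38 in oil, a change of -0.069 (SE 0.052), and it was called lower after centring, at -0.22. Smpd1 stood at 8.75, 8.75, 8.51, 8.54 and 8.74 in EE2 and 8.58, 8.47, 8.63, 8.72 and 8.51 in oil, a change of 0.075 (SE 0.068) with wide overlap, which centring turned to -0.08. The change was 0.16 (SE 0.068) for Gla, the alpha-galactosidase, which was called higher without EE2 array 15 or oil array 6, and 0.036 (SE 0.084) for Galc, the galactosylceramidase, which centring turned to -0.12.

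Among the 6 glycan and glycosaminoglycan hydrolases, 4 rose and 0 fell with EE2, with a median change of 0.36, and after centring 3 were higher and 1, Arsb, lower. Gusb, the beta-glucuronidase, stood at 7.65, 7.64, 7.68, 7.61 and 7.59 in EE2 and 7.08, 7.08, 7.08, 7.12 and 7.03 in oil, 2 tight groups far apart, a rise of 0.55 (SE 0.049). Man2b1, the lysosomal alpha-mannosidase, stood at 11.25, 11.33, 11.29, 11.41 and 11.47 in EE2 and 10.71, 10.67, 10.88, 10.87 and 10.64 in oil, a rise of 0.60 (SE 0.059). Naglu, which acts on heparan sulfate, rose by 0.52 (SE 0.083), and Neu1, the lysosomal sialidase, rose by 0.20 (SE 0.062), a call lost after centring, after quantile normalization and with the sample number as a covariate. Sgsh, the heparan sulfamidase, had a change of 0.10 (SE 0.086) and Arsb, arylsulfatase B, one of -0.074 (SE 0.064), neither called, and centring turned that of Sgsh to -0.059.

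All 4 measured membrane genes rose with EE2, with a median change of 0.20, but after centring 1 of the 4 was called, Lamp1, and Lamp2 lay at -0.015. Lamp1 stood at 12.38, 12.31, 12.31, 12.29 and 12.41 in EE2 and 12.03, 12.00, 11.93, 12.01 and 11.97 in oil, a rise of 0.35 (SE 0.043), and was again called after centring. Lamp2 stood at 12.09, 12.05, 12.11, 12.06 and 12.08 in EE2 and 11.96, 11.94, 11.93, 11.93 and 11.93 in oil, a rise of 0.14 (SE 0.038), small but without overlap. Mcoln1 stood at 7.61, 7.81, 7.48, 7.73 and 7.82 in EE2 and 7.45, 7.41, 7.51, 7.58 and 7.40 in oil, a rise of 0.22 (SE 0.066), with EE2 array 15 inside the oil range. Scarb2, which carries glucocerebrosidase to the lysosome, rose by 0.19 (SE 0.061), a call lost without oil array 6 and after centring.

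Of the 4 proton pump members, 3 rose and 0 fell with EE2, with a median change of 0.27, and after centring 2 were higher and 1, Atp6v1a, lower. The rises were 0.43 (SE 0.07) for Atp6ap1, an accessory subunit, 0.30 (SE 0.059) for Atp6v1b2 and 0.24 (SE 0.063) for Atp6v0d1, subunits of the cytosolic and the membrane sector. Atp6v1a stood at 8.69, 8.51, 8.47, 8.49 and 8.35 in EE2 and 8.78, 8.59, 8.65, 8.61 and 8.59 in oil, a change of -0.14 (SE 0.065) that was not called. Without EE2 array 9 it was called lower, at -0.19 with a limma adjusted p of 0.0215. Tfeb stood at 4.71, 4.85, 5.12, 4.71 and 5.08 in EE2 and 4.92, 5.07, 4.95, 5.02 and 4.92 in oil, with EE2 arrays both above and below the oil arrays, and its change of -0.084 (SE 0.10) was not called. After centring Tfeb was called lower at -0.24, with a limma adjusted p of 0.0409.

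**Figure D3:**
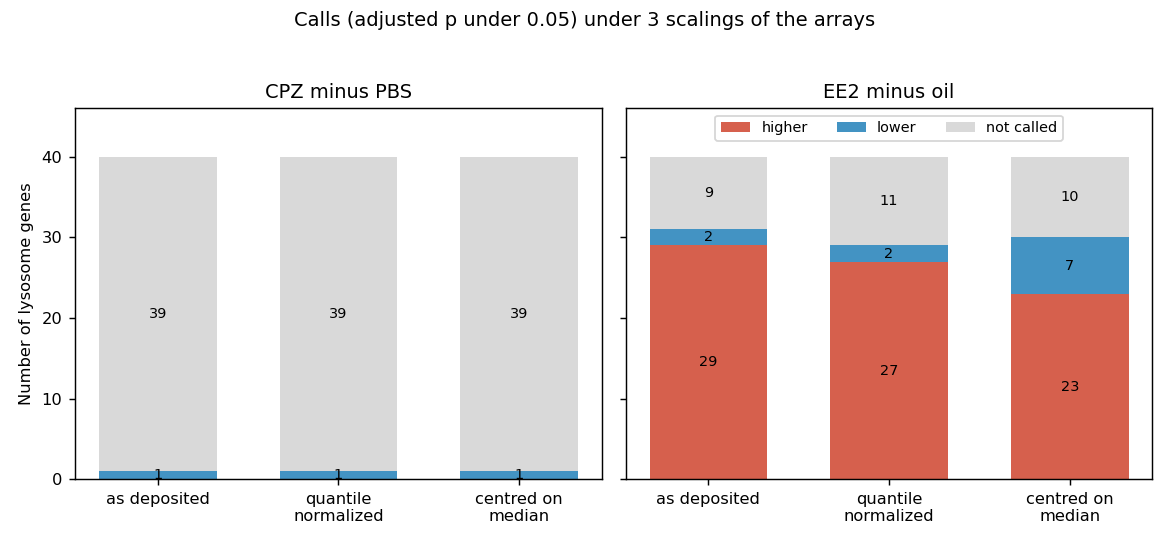
Number of the 40 lysosome genes called higher, lower or not called (stacked bars from 0) in CPZ minus PBS (left) and EE2 minus oil (right), with the values as deposited, quantile normalized, or with each array centred on its median. The CPZ counts are 0 higher and 1 lower under each scaling, and the EE2 counts are 29 and 2, 27 and 2, and 23 and 7. After centring, 2085 of all 16464 genes were higher and 9634 lower with EE2.

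Most macrophage and lymphocyte markers and some neutrophil markers also rose with EE2. Of the 18 macrophage markers, 17 rose and 0 fell with EE2, with a median change of 1.51, the groups did not overlap for 17, and the counts after centring were again 17 and 0. Their summed linear level ran between 14639 and 21978 in EE2 and between 5484 and 6807 in oil. The rise with the smallest p was that of Cd14, an endotoxin co-receptor, at 2.92 (SE 0.20), and the marker not called was Marco, at -0.17 (SE 0.32). Csf1r, the growth factor receptor of macrophages, rose by 1.80 (SE 0.13). Lymphocyte markers rose for 6 of 10 and fell for 1, and after centring 5 were higher and 2 lower. Neutrophil markers rose for 3 of 9 and 6 were not called, with a median change of 0.16, and after centring 3 were higher and 1 lower. The neutrophil marker with the smallest p was S100a8, at 3.88 (SE 0.31). Hepatocyte markers rose for 2 of 10 and fell for 4, and after centring 0 were higher and 7 lower. The members' mean level ran between 8.80 and 8.84 in EE2 and between 8.45 and 8.49 in oil. The part of immune cells in the lysosome values was not tested.

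**Figure D4:**
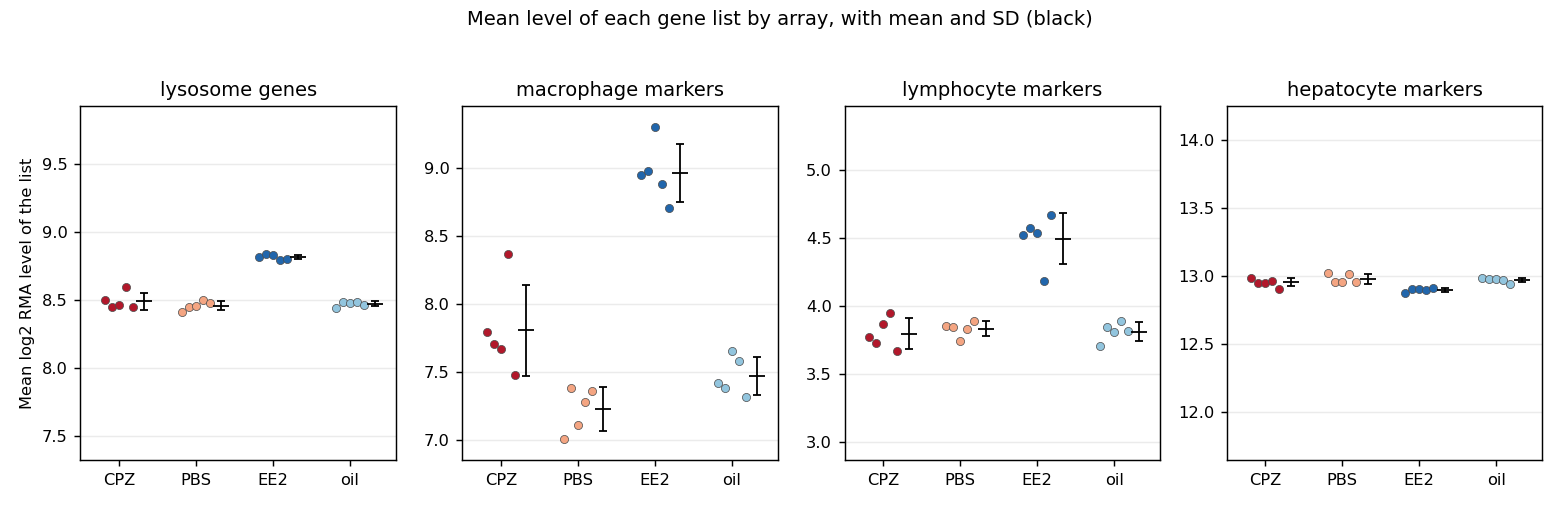
Mean log2 level of the 40 lysosome genes, 18 macrophage, 10 lymphocyte and 10 hepatocyte markers on each array (points), with mean and SD over 5 arrays in black, every panel spanning the same height. The macrophage markers lie highest in EE2 and CPZ array 11 stands above the other CPZ arrays, while the lysosome genes lie between 8.80 and 8.84 in EE2, between 8.45 and 8.49 in oil, between 8.45 and 8.60 in CPZ and between 8.41 and 8.50 in PBS.

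The third comparison tested the CPZ response minus the EE2 response, each taken against its own vehicle. The CPZ response was the lower in 25 of 40 members and the higher in 2, Gm2a and Ctsf, with 13 not called. That is 67.5% of the members, where 31.6% of all genes were called, 17.0% higher and 14.6% lower. The members' median difference was -0.34, against 0.067 over all genes. After centring 18 were lower and 4 higher, and with the sample number as a covariate 12 were lower and 1 higher. For 28 of the 29 members that rose with EE2, the upper limit of the 95% interval of the CPZ change lay below the EE2 change, the exception being Scarb2. These 29 were picked for their rise with EE2, and the error of the EE2 change was left out. That count is therefore a description and no test of the difference.

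The member with the largest difference was Ctss, at 0.46 with CPZ and 1.75 with EE2, a difference of -1.29 (SE 0.22). Gm2a stood at 9.32, 9.41, 9.43, 9.45 and 9.44 in CPZ and 9.39, 9.49, 9.49, 9.73 and 9.38 in PBS, so that its change was -0.089 with CPZ and -1.20 with EE2. The difference for Gm2a was 1.11 (SE 0.11), with a limma adjusted p of 1.6e-07, the smallest of the members, while that of Ctsf was not called with the sample number as a covariate. Arsa was lower with CPZ and higher with EE2, at -0.37 and 0.67, a difference of -1.04 (SE 0.12). It was the 1 member called in opposite directions with the 2 drugs, a pattern that rests on the CPZ call near the threshold. Psap stood at 9.61, 9.56, 9.60, 9.68 and 9.33 in CPZ and 9.33, 9.52, 9.55, 9.64 and 9.54 in PBS, a change of 0.041 with CPZ against 0.88 with EE2. Asah1 stood at 9.31, 8.98, 9.09, 9.27 and 9.00 in CPZ and 8.77, 9.17, 9.12, 8.80 and 9.16 in PBS, a change of 0.13 with CPZ against 0.89 with EE2. For both genes the CPZ and PBS arrays overlapped, and the differences were -0.84 (SE 0.10) for Psap and -0.76 (SE 0.12) for Asah1. Gusb stood at 7.07, 7.00, 6.95, 7.16 and 7.08 in CPZ and 7.13, 7.12, 6.92, 7.10 and 7.08 in PBS, with a difference of -0.57 (SE 0.07). Man2b1 stood at 10.63, 10.76, 10.67, 10.74 and 10.60 in CPZ and 10.81, 10.77, 10.63, 10.74 and 10.75 in PBS, with a difference of -0.66 (SE 0.084). These glycan hydrolases overlapped between CPZ and PBS and stood apart between EE2 and oil. Ctsb stood at 8.80, 8.76, 8.76, 9.06 and 8.79 in CPZ, with array 11 the highest, and 8.43, 8.67, 8.72, 8.88 and 8.82 in PBS, with a difference of -0.64 (SE 0.11).

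Differences were also called for Ctsc at -0.70 (SE 0.15), Lgmn at -0.65 (SE 0.19), Pla2g15 at -0.52 (SE 0.13), Lamp1 at -0.41 (SE 0.061), Ctsd at -0.37 (SE 0.07) and Npc2 at -0.34 (SE 0.092). With the sample number as a covariate the calls of Lgmn, Pla2g15, Npc2, Lipa and Lamp2 were lost, and after centring those of Npc2, Lipa and Lamp2. The covariate also removed the calls of Ctsf, Ctsl, Ctsz, Tpp1, Glb1, Ppt1, Atp6v1b2, Atp6v0d1 and Atp6ap1. Centring also removed those of Ctsl, Tpp1, Atp6v1b2 and Atp6v0d1. Lipa at -0.41 (SE 0.13) was called, but not without any 1 of CPZ array 1, EE2 arrays 13 and 17 or oil array 8. Lamp2 at -0.15 (SE 0.054) was called, but the call was lost in 17 of 20 fits that left out 1 array, all but those without CPZ array 1, EE2 array 13 or oil array 2. The call of Atp6v0d1, at -0.24 (SE 0.089), was lost in 13 of those 20 fits. The difference was not called for Mcoln1 at -0.22 (SE 0.093), Atp6v1a at 0.23 (SE 0.092), Npc1 at -0.09 (SE 0.074), Ctsh at 0.082 (SE 0.061), Smpd1 at 0.015 (SE 0.10) and Tfeb at -0.012 (SE 0.14), although Ctsh and Atp6v1a were called higher after centring. Its 95% interval ran between -0.18 and 0.21 for Smpd1, between -0.24 and 0.065 for Npc1 and between -0.31 and 0.29 for Tfeb.

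The vehicles were compared as a background without a drug. With oil minus PBS, 0 of 40 members were called, where 0.0486% of all genes were, 0.0182% higher and 0.0304% lower, and 7 members and 8.59% of all genes had an unadjusted limma p under 0.05. The members' changes lay between -0.20 for Naglu and 0.21 for Ctsf, with a median of 0.014. The oil and PBS arrays did not overlap for 3 members, Ctsh and Npc1 higher and Ctsl lower in oil. Over all genes 1.69% had no overlap. The members' mean level ran between 8.45 and 8.49 in oil and between 8.41 and 8.50 in PBS.

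Lysosome genes outside the 40 members moved in both directions with EE2, and with CPZ most were not called. Of 13 other lysosomal hydrolases, 8 rose and 2 fell with EE2, 3 and 3 after centring, and 0 were called with CPZ. The rises included Fuca1, the fucosidase, at 1.22 (SE 0.061), Hgsnat, which acetylates heparan sulfate, at 0.58 (SE 0.064), and Manba, the beta-mannosidase, at 0.38 (SE 0.067). Of 23 other membrane and transport genes, 8 rose and 6 fell with EE2, 5 and 10 after centring. Over all 16464 genes, 3166 rose and 4394 fell, and 2085 and 9634 after centring, so the move towards falls was not particular to these lists. Laptm5, a lysosomal protein of blood cells, rose by 2.10 (SE 0.13) and Ctns, the cystine exporter, by 0.98 (SE 0.066), while Igf2r, the mannose 6-phosphate receptor, fell by 0.85 (SE 0.072). With CPZ 1 of these genes rose, the macrophage gene Cd68. The count was 0 without CPZ array 1, PBS array 7 or PBS array 14, and with the 10 arrays alone and with the sample number as a covariate. Of 12 other proton pump subunits, 4 rose and 1 fell with EE2, 3 and 3 after centring, and 0 were called with CPZ. The rises were led by Tcirg1, a pump subunit known from osteoclasts and immune cells, at 0.83 (SE 0.12), with Atp6v0e at 0.34 (SE 0.053) and Atp6v1c1 at 0.28 (SE 0.058). One of these subunits, Atp6v0d2, was lower in oil than in PBS, by 0.92 (SE 0.15, limma adjusted p = 0.0234), and was picked out after its values were seen.

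Of 19 genes of the TFEB family and of lysosomal nutrient sensing, 3 rose and 7 fell with EE2, 1 and 11 after centring. Falls were also the more frequent direction over all genes, where 19.2% rose and 26.7% fell with EE2. After centring, 2085 of all 16464 genes were higher and 9634 lower, a background that holds for the autophagy counts below too. With CPZ 0 of the 19 were called, but 1 was lower after centring, under the filter on low levels, the intensity trend or array weights, and without CPZ array 1 or PBS array 7. Tfec, a relative of Tfeb known from macrophages, rose by 1.08 (SE 0.12), while Fnip1, a partner of folliculin, fell by 0.39 (SE 0.065) and Lamtor4, a Ragulator subunit, by 0.24 (SE 0.051). With CPZ the changes were -0.26 (SE 0.065) for Fnip1 and -0.22 (SE 0.062) for Mtor, neither called. Of 20 autophagy genes, 7 rose and 4 fell with EE2, 4 and 11 after centring. Wipi1, a phosphoinositide-binding autophagy protein, rose by 0.89 (SE 0.077) and Map1lc3b, which coats autophagosomes, by 0.78 (SE 0.073), while its relative Map1lc3a fell by 0.40 (SE 0.058). With CPZ 1 autophagy gene fell, Ulk1, the kinase that starts autophagy, by 0.38 (SE 0.074, limma adjusted p = 0.0187). That list held 0 called genes without CPZ array 3, with the 10 arrays alone or with the sample number as a covariate, and 2 without CPZ array 11.

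Of 15 genes known as markers of phospholipidosis in cultured cells or tissue, 4 of them members, 0 were called with CPZ, with a median change of -0.015. The smallest CPZ p-values in the list were those of Npc1 and of Gpnmb, a lysosomal stress glycoprotein, at -0.22 (SE 0.11). With EE2 6 of the 15 rose and 1 fell, 5 and 6 after centring, among them Asah1 and Lss, a cholesterol synthesis enzyme, at 0.87 (SE 0.14), and Fabp1, the liver fatty acid binding protein, which fell by 0.65 (SE 0.067). Of 13 genes of cholesterol synthesis and uptake, 9 rose and 2 fell with EE2, the same counts after centring, and 0 were called with CPZ. Sqle, the squalene epoxidase, rose by 1.34 (SE 0.15), Cyp51, a sterol demethylase, by 0.76 (SE 0.10) and Srebf2, the regulator of the pathway, by 0.65 (SE 0.07). The CPZ change nearest to a call in that list was 0.61 (SE 0.21) for Mvd, a mevalonate pathway enzyme, with a limma adjusted p of 0.216.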

How the data were processed

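Liver RNA was hybridised to 20 arrays, 5 in each of 4 groups. The deposited values are log2 levels, 1 probe set per Entrez gene, which the authors made with RMA, per the submitters' processing notes. The sources used here do not give the probe definition version or the set of arrays that went into 1 normalization. Of 17306 probe sets, 16464 had 1 gene symbol and were tested, 0 had several and 842 had none. The values were used without further scaling or filter. The model, limma 3.58.1 in R 4.3.3, had a mean for each of the 4 groups over all 20 arrays (16 residual and 4.25 prior degrees of freedom), with 4 contrasts, two-sided p-values and Benjamini-Hochberg adjustment over all genes. Linear levels are 2 to the power of the log2 level, summed over a list. The 14 lists outside the members hold 211 genes, 182 of them measured, and come from general knowledge. The members and lists were chosen with earlier results of these data known, so their counts are a description. Values by array are given for the 8 members with the smallest p with EE2, the 6 with CPZ, the 4 in the difference, and 12 fixed by name; of each other list, up to 3 genes by p with EE2 and 2 with CPZ. Alternatives were quantile normalization, centring of arrays, a filter on low levels, an intensity trend, array weights, 10 arrays alone, sample number as a covariate and leaving out each array. Promoters are from RefSeq. Tested on simulated data for CPZ minus PBS with 16464 genes, the model recovered 94% of 50 genes shifted by 0.5 and 98% of 50 shifted by 1. It recovered 100% of 50 shifted by 2 and of 50 shifted by 4, with 7 false calls among 203. The simulated noise was drawn separately for each gene and array, so shifts shared by many genes of 1 array were not covered. Recovery in the real data may therefore be lower.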

Additional observations from a re-analysis of the deposited data

Results flagged for a closer look

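Among 96 sets of 5 arrays, made of the 22 genes given by array and of the means of the lysosome genes and macrophage markers, 4 held 1 array far from the others, and chance alone marks about 1 in 20 such sets. In CPZ, Gm2a was lowest on array 1, at 9.32, against 9.41 to 9.45 on the other 4. Ctsb was highest in CPZ on array 11, at 9.06, against 8.76 to 8.80 on the other 4. In PBS, Gusb was lowest on array 14, at 6.92, against 7.08 to 7.13 on the others. Npc2 was lowest in EE2 on array 9, at 9.59, against 9.82 to 9.89 on the others.

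For 16 of the 22 genes the limma test of the CPZ response minus the EE2 response passed the threshold. That count is partly fixed by the choice of the 22, which include the 4 with the smallest p in this difference and the 8 with EE2, and over all 40 members 67.5% were called, against 31.6% of all genes. The difference was above 0 for Gm2a, at 1.11. It was below 0 for the proteases Ctss at -1.29, Ctsc at -0.70, Lgmn at -0.65, Ctsb at -0.64 and Ctsd at -0.37. Among genes of lipid turnover it was -1.04 for Arsa, -0.84 for Psap, -0.76 for Asah1, -0.52 for Pla2g15, -0.41 for Lipa and -0.34 for Npc2. The glycan hydrolases Man2b1 and Gusb had differences of -0.66 and -0.57, and the membrane genes Lamp1 and Lamp2 of -0.41 and -0.15.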

How the results depend on the processing

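With each array centred on its median, EE2 minus oil gave 23 members higher and 7 lower, and 5 members turned below 0, Ctsh at -0.15, Lamp2 at -0.015, Smpd1 at -0.08, Galc at -0.12 and Sgsh at -0.059, since centring takes the higher medians of the EE2 arrays out. The difference of the responses then gave 4 higher and 18 lower. CPZ minus PBS gave 0 members lower in a model of the 10 arrays alone and with the sample number as a covariate. With that covariate the difference of the responses gave 1 higher and 12 lower. No fit of 10 arrays was made for this difference, which needs all 20. Sample numbers were mostly lower in CPZ than in PBS and in oil than in EE2. The sample number therefore overlaps with both drug comparisons, and calls lost with it cannot be set apart from that overlap. Quantile normalization, a filter that dropped the lowest 30% of genes by level, an intensity trend with a robust prior, and array weights left every count of members called within 1.5 times its value. Over the fits that left out 1 array, the counts ran for CPZ minus PBS between 0 and 0 higher and 0 and 1 lower, for EE2 minus oil between 28 and 29 higher and 2 and 3 lower, for the difference between 2 and 3 higher and 23 and 25 lower, and for oil minus PBS between 0 and 0 each way. Over all genes, CPZ minus PBS called 73 higher and 58 lower, 37 and 27 with the 10 arrays alone, 12 and 8 with the sample number as a covariate, and 111 and 126 with array weights. EE2 minus oil called 3166 higher and 4394 lower, 41.9% of the calls higher, and after centring 2085 and 9634, 17.8% higher. Centring likewise gave 79.3% of the calls higher in the difference of the responses, against 53.8% as deposited, and 36.4% in CPZ minus PBS, against 55.7%. The causes of these shifts were not tested beyond this. No paired analysis was possible because the groups share no sample number. With 5 arrays a group, the number of arrays limits the precision.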

Other observations

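Markers of endothelium, which in liver sinusoids is rich in lysosomes and scavenger receptors, averaged higher in CPZ than in PBS. The list holds both sinusoidal and general endothelial genes. Of 10 endothelial markers, 4 rose and 0 fell with CPZ, and all 10 changes were above 0, with a median of 0.34. Clec4g, a lectin of liver sinusoidal endothelium, rose by 0.45 (SE 0.077) and Stab2, the hyaluronan scavenger receptor of those cells, by 0.46 (SE 0.083) (limma adjusted p = 0.00598 for Clec4g and 0.0102 for Stab2). The count was 2 without any 1 of CPZ arrays 1 and 3 or PBS arrays 7 and 14, and 0 with the sample number as a covariate. In oil minus PBS these 10 markers were also all above 0, with a median of 0.27 and none called, and the PBS arrays are shared by both comparisons. With EE2, 2 of the 10 rose and 5 fell: Clec4g fell by 0.67 (SE 0.077) and Tek, an endothelial receptor kinase, fell by 0.68 (SE 0.095), while Lyve1, a hyaluronan receptor, rose by 1.63 (SE 0.25).

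Of 10 stellate cell markers, 3 rose and 3 fell with EE2, with Acta2, a smooth muscle actin, at 0.71 (SE 0.15), the matrix proteoglycan gene Dcn at 0.36 (SE 0.067) and Reln at -0.43 (SE 0.073). Of 6 cholangiocyte markers, 0 rose and 2 fell with EE2, Epcam at -0.47 (SE 0.093) and Cldn7 at -0.34 (SE 0.12), and after centring 4 were lower. With CPZ no stellate cell or cholangiocyte marker was called by limma.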
